A study of Homo sapiens with 8 samples.

Results

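The acute-phase and fibrinogen genes described here are SAA1, SAA2, FGA, FGB, FGG, C3, SERPINA1, SERPINA3, LCN2 and HP, 10 of the 19158 genes in the deposited tables. They were chosen by gene symbol, with earlier results of the comparison of dexamethasone with untreated cells in view. Their own differences between the groups are therefore given as a description, with no test. RNA was measured in A549, an established epithelial cell line from a human lung adenocarcinoma, labelled WT and grown in DMEM with serum. There were 4 untreated wells and 4 wells given 1 µM dexamethasone, a synthetic glucocorticoid, for 48 h, with 1 library per well and replicate numbers 1, 3, 4 and 5 in both groups. All wells carried the same batch label and came from 1 cell line, so replicate error is the spread between wells.

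Acute-phase proteins are plasma proteins whose output changes in inflammation or injury. Most are made by the liver, where IL-6 and IL-1 act through STAT3, NF-kB and C/EBP factors and glucocorticoids act alongside these cytokines. Lung epithelial cells, A549 included, are also known to make several of them, fibrinogen among them.

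Values are FPKM, fragments per kilobase of transcript scaled to library size, a unit inferred from the values, and they were scaled further between libraries. The steps between low values corresponded to about 24720000 to 29060000 fragments per library, so that 1 fragment on a transcript of 1 kb was worth 0.0344 to 0.0405 FPKM. In these bulk samples, fewer cells expressing a gene and less RNA per cell cannot be told apart. The treatment labels were checked with FKBP5, TSC22D3 and PER1, known glucocorticoid targets, whose groups did not overlap. Of 5 epithelial markers 4 reached 1 FPKM in some library, EPCAM being the exception. KRT19 was lower in treated libraries, with means of 160 and 55.0 FPKM, and CDH1 higher, with means of 6.71 and 18.25 FPKM. The groups of these markers did not overlap, and those of EPCAM, KRT8 and KRT18 did. Hepatocyte markers summed to 0.12 to 0.201 FPKM in untreated and 0.132 to 0.226 FPKM in dexamethasone libraries, with ALB, APOB and CYP3A4 below 0.1 FPKM in every library. The summed neutrophil markers reached 0.604 FPKM at most, with CSF3R listed at 0 throughout. Leukocyte markers summed to 3.67 to 6.36 FPKM in untreated and 1.95 to 2.63 FPKM in treated libraries, with PTPRC and CD3E at 0. Only CD68 among them reached 1 FPKM, with means of 4.1 and 2.05 FPKM. Fibroblast markers summed to 1.67 to 2.51 FPKM in untreated and 0.548 to 0.799 FPKM in treated libraries. COL1A1 alone reached 1 FPKM there, with means of 2.05 and 0.366 FPKM, and COL1A2 was at 0. DCN went the other way, from 0 in every untreated library to 0.17 to 0.38 FPKM in the treated ones. Alveolar type II markers summed to 0.113 to 0.312 FPKM in untreated and 2.72 to 4.62 FPKM in treated libraries, SFTPD being the only one to reach 1 FPKM. The part of these shifts in the results was not tested.

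After dexamethasone, SAA1, SAA2, the 3 fibrinogen genes, C3 and SERPINA3 were higher in every treated library than in any untreated library. LCN2 was higher on average with overlapping groups, and SERPINA1 and HP stayed near the limit of detection. A gene was tested when it reached 0.5 FPKM in at least 4 libraries, on the log2(FPKM + 1) scale with limma, and called at a Benjamini-Hochberg adjusted p under 0.05. SERPINA1 and HP did not reach that level. Of the 8 genes that did, 8 were called higher and 0 lower, where 26.7% of all 12161 tested genes were called in either direction and 12.4% were called higher. The groups of 7 of the 8 did not overlap, against 31.5% of all tested genes. Nothing is read from these counts, because the genes were chosen on this comparison and a low gene passes the filter through its high group. The number called was 7 without untreated replicate 1, 3 or 4 or dexamethasone replicate 3, each time because LCN2 was lost.

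**Figure D1:**
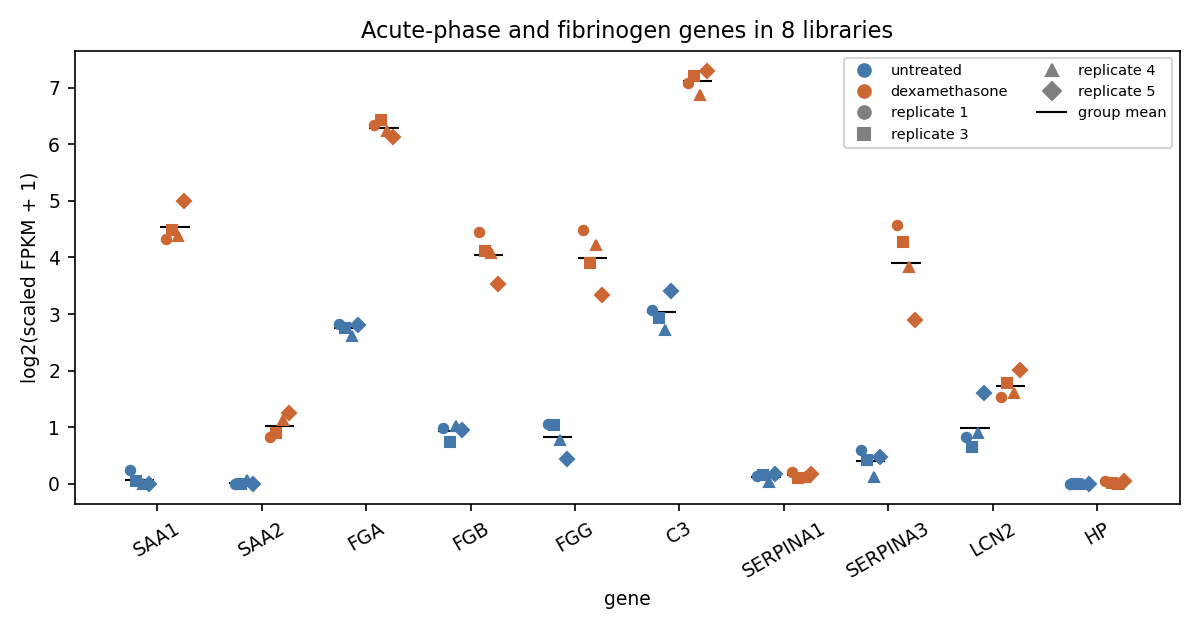
Scaled FPKM of the 10 genes on a log2(FPKM + 1) axis, 1 point per library (4 untreated, 4 dexamethasone, marker shape giving the replicate number), with the mean of the plotted values as a bar. C3 and FGA are highest in both groups, SAA1 goes from near 0 to 18.9 to 30.9 FPKM, and LCN2 overlaps between groups.

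SAA1 and SAA2 encode serum amyloid A, small apolipoproteins that travel on high-density lipoprotein during inflammation. SAA1 (ENSG00000173432, GRCh38 chromosome 11, 18266174 to 18269977, plus strand) had 0.187 FPKM in untreated replicate 1, 0.0271 FPKM in replicate 3, and was listed at 0 in replicates 4 and 5. With dexamethasone its levels were 18.9, 21.3, 19.7 and 30.9 FPKM, in the order of replicates 1, 3, 4 and 5, which is kept throughout. All treated libraries lay far above all untreated ones, with a log2 difference of 4.47 (SE 0.166) on the log2(FPKM + 1) scale. No fold is given against a group with values listed at 0. SAA2 (ENSG00000134339, chromosome 11, 18239223 to 18248643, minus strand) was listed at 0 in 3 untreated libraries and at 0.0457 FPKM in replicate 4. After dexamethasone it was at 0.77, 0.853, 1.18 and 1.38 FPKM in replicates 1, 3, 4 and 5, a log2 difference of 1.01 (SE 0.102). Thus both genes were listed above 0 in every treated library, at very different levels, though reads can be shared between them.

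Since the 2 genes can share reads, they were also summed. The sum was 0.187, 0.0271, 0.0457 and 0 FPKM in the untreated and 19.7, 22.2, 20.9 and 32.3 FPKM in the dexamethasone replicates. Its log2 difference was 4.52 (SE 0.164). SAA2 held 3.85% to 5.65% of the sum in the treated libraries. Of the distinct stretches of 150 bases, the labelled read length, in the GENCODE transcripts of SAA1, 8.94% occurred unchanged in a transcript of SAA2, and 5.29% of those of SAA2 occurred in SAA1. The stretches were pooled over all GENCODE transcripts, 5 of SAA1 and 6 of SAA2, whether or not these were expressed here. The shares are therefore not the shares of reads that fit both genes. How the authors assigned such reads is not stated, so the SAA2 values may include reads from SAA1. SAA2 also lies within the span of the read-through gene SAA2-SAA4 on the same strand, which was at or near 0 in all libraries. The next gene on the SAA2 side, the constitutive family member SAA4, was listed at 0 in all 8 libraries. On the other side HPS5, a gene of lysosome-related organelle biogenesis, was at 7.71 ± 1.18 and 9.04 ± 0.957 FPKM (SD, n = 4 each; limma adjusted p = 0.287).

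FGA, FGB and FGG encode the Aα, Bβ and γ chains of fibrinogen, the clot-forming protein, in which the chains occur in equal numbers. The genes lie together in 50.0 kb of chromosome 4 (154562956 to 154612967), FGB on the plus strand and FGA and FGG on the minus strand. These adjacent genes were all higher in the treated libraries. The sequence before FGA and FGB, the chains whose windows held a motif match, is shown. FGG, whose window held none, is not shown. The sequences are from RefSeq's promoter windows (GRCh38.p14) and end before the first base of the gene as given in the tables. Capitals mark matches to the motifs searched, which are the C/EBP motif TTGCNNAA and the STAT motif TTCNNNGAA (N for any base), read on both strands. The palindromic glucocorticoid receptor motif and the NF-kB consensus were also searched.
FGA, chr4:154590767-154590992, minus strand: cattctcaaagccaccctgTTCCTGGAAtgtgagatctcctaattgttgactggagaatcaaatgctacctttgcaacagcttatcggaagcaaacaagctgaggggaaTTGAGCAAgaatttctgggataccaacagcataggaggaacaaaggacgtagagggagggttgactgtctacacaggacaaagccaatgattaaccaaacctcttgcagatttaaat
FGB, chr4:154562761-154562955, plus strand: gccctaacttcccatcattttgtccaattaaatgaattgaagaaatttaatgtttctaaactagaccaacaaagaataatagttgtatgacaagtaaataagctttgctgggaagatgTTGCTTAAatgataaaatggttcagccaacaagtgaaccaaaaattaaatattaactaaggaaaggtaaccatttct

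RefSeq windows, from 250 bases before to 50 bases after a start, were found for 6 of the 10 genes, with none for SAA1, SAA2, C3 and HP. FGA held a STAT match beginning 231 bases and a C/EBP match beginning 141 bases before the RefSeq start. FGB held a C/EBP match beginning 132 bases before the RefSeq start of the window from which the stretch above was taken. That stretch ends short of this RefSeq start. The same match began 101 bases before the RefSeq start of another FGB window. LCN2 held a C/EBP match 143 bases before its RefSeq start. The windows of FGG, SERPINA1 and SERPINA3 held none of the motifs, and no window of the 6 genes held the glucocorticoid receptor motif or the NF-kB consensus. Over all 34943 windows, 10.5% held the C/EBP motif, 7.66% the STAT motif, 0.389% the glucocorticoid receptor motif and 7.72% the NF-kB consensus. The matches overlapped no other match. A match describes letters and is not a measured binding site, and the absence of a match concerns only these letters in this window.

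FGA (ENSG00000171560, 154583126 to 154590766) stood at 6.09, 5.71, 5.08 and 5.97 FPKM without treatment and at 79.9, 85.3, 74.8 and 69.1 FPKM with dexamethasone. Its group means of 5.71 ± 0.453 and 77.3 ± 6.95 FPKM (SD, n = 4 each) differed 13.5-fold, a log2 difference of 3.54 (SE 0.119). FGA had the smallest relative spread of the 10 genes in both groups, an SD of 7.92% of the mean in untreated cells. FGB (ENSG00000171564, 154562956 to 154571086) was at 0.984, 0.672, 1.02 and 0.931 FPKM in the untreated and 21.0, 16.3, 15.9 and 10.6 FPKM in the dexamethasone replicates. Its means were 0.901 ± 0.157 and 15.9 ± 4.26 FPKM, a 17.7-fold difference and a log2 difference of 3.12 (SE 0.189). FGG (ENSG00000171557, 154604134 to 154612967) was at 1.09, 1.05, 0.708 and 0.359 FPKM in the untreated and 21.4, 13.9, 17.7 and 9.06 FPKM in the dexamethasone replicates. Its means were 0.801 ± 0.34 and 15.5 ± 5.27 FPKM, a 19.4-fold difference and a log2 difference of 3.15 (SE 0.25). Dexamethasone replicate 5 was the lowest treated library for all 3 chains, and the groups of each chain stayed apart by a factor of at least 8.33 between the lowest treated and the highest untreated library.

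The 3 chains were not at equal levels per length. FGA held 74.6% to 82.2% of the summed FPKM of the 3 genes in untreated and 65.4% to 77.9% in dexamethasone libraries. FGA exceeded FGB 5.00- to 8.50-fold in untreated and 3.81- to 6.53-fold in treated libraries. It exceeded FGG 5.46- to 16.6-fold and 3.74- to 7.62-fold. The highest ratio, 16.6, came from untreated replicate 5, where FGG was lowest. FGB and FGG were close to each other, with a ratio of 0.9 to 1.17 in treated libraries and 0.642 to 2.59 in untreated ones. All of these ratios overlapped between the groups. The summed level of the 3 genes went from 7.42 ± 0.567 to 109 ± 14.5 FPKM (SD, n = 4 each). The genes beside the cluster were PLRG1, a splicing factor gene 12.5 kb from FGB, and LRAT, which makes retinyl esters, 14 kb from FGG. PLRG1 was at 11.4 ± 1.55 and 12.6 ± 1.16 FPKM (limma adjusted p = 0.453), and LRAT, with means of 0.0203 and 0.0328 FPKM, fell under the level for testing.

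**Figure D2:**
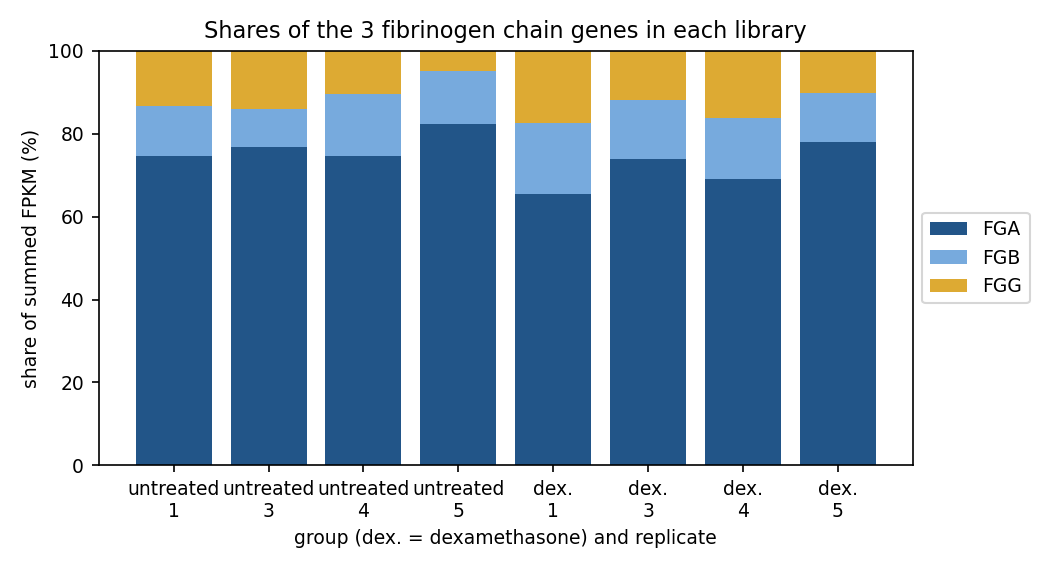
Share of the summed scaled FPKM of FGA, FGB and FGG held by each gene in each of the 8 libraries, as stacked bars in percent. FGA holds 65.4% to 82.2% in every library, and the ranges of the groups overlap.

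C3 encodes the component on which all complement pathways meet. C3 (ENSG00000125730, chromosome 19, 6677704 to 6730562, minus strand) was at 7.41, 6.62, 5.6 and 9.65 FPKM in the untreated and 135, 147, 116 and 156 FPKM in the dexamethasone replicates. The means of 7.32 ± 1.72 and 138 ± 17.2 FPKM (SD, n = 4 each) differed 18.9-fold, a log2 difference of 4.08 (SE 0.17). C3 was the most abundant of the 10 genes in both groups and moved from the 66.9 to the 98.2 percentile of all genes by mean level. It supplied 41.8% to 49.7% of the summed FPKM of the 10 genes in untreated and 44.5% to 54.4% in treated libraries. As given in the tables C3 overlaps GPR108 on the same strand, which went from 16.6 ± 4.22 to 25.0 ± 4.67 FPKM (log2 difference 0.58, limma adjusted p = 0.0484), a call that held in 1 of 8 fits without a single library and with the GC trend removed (0.80, limma adjusted p = 8.09e-05). TRIP10, beyond GPR108, was at 30.9 ± 5.34 and 35.9 ± 4.66 FPKM (log2 difference 0.22, limma adjusted p = 0.317), and passed with the GC trend removed (0.42, limma adjusted p = 0.00111). On the other side lies TNFSF14, a cytokine gene of the tumour necrosis factor superfamily, 7.1 kb away. TNFSF14 had no signal in untreated replicates 1 and 5, 0.0128 FPKM in replicate 3 and 0.0242 FPKM in replicate 4. Its levels were 1.17, 0.695, 0.844 and 0.327 FPKM after dexamethasone. TNFSF14 did not reach the level for testing, and its groups did not overlap.

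SERPINA1 and SERPINA3 encode secreted protease inhibitors, alpha-1-antitrypsin against neutrophil elastase and alpha-1-antichymotrypsin against cathepsin G. SERPINA3 (ENSG00000196136, chromosome 14, 94612377 to 94624055, plus strand) was at 0.506, 0.339, 0.0824 and 0.385 FPKM in the untreated and 22.8, 18.4, 13.2 and 6.45 FPKM in the dexamethasone replicates. Its means were 0.328 ± 0.178 and 15.2 ± 7.04 FPKM (SD, n = 4 each), a 46.3-fold difference and a log2 difference of 3.49 (SE 0.318). With untreated values this low, the log2 difference depends strongly on the 1 FPKM added before the log. The treated libraries differed 3.54-fold among themselves, more than for any other member called, yet the lowest was 12.7 times the highest untreated value. SERPINA1 (ENSG00000197249, chromosome 14, 94376747 to 94390693, minus strand) was at 0.102, 0.11, 0.0198 and 0.124 FPKM in the untreated and 0.151, 0.0774, 0.0815 and 0.13 FPKM in the dexamethasone replicates. Its groups overlapped, and no change of SERPINA1 was detectable at this depth.

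Around these serpins the values were low. Of 6 other clade A serpins of the list found in the tables, 0 reached the level for testing. SERPINA6, also of clade A, was counted with the liver plasma proteins and was tested. Among the deposited genes, which lack SERPINA2, it is the nearest before SERPINA1, 53.4 kb away. It encodes corticosteroid-binding globulin. SERPINA6 fell 19.6-fold, with means of 0.96 ± 0.104 and 0.049 ± 0.0184 FPKM and a log2 difference of -0.90 (SE 0.0721, limma adjusted p = 2e-05). The treated values, 0.0335 to 0.071 FPKM, lie near the worth of 1 fragment on 1 kb. SERPINA11 on the other side was listed at 0 throughout. Beside SERPINA3, SERPINA5 had means of 0.0623 and 0.0652 FPKM and GSC means of 0.486 and 0.181 FPKM, neither tested.

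LCN2 encodes lipocalin 2, which binds bacterial siderophores, and HP encodes haptoglobin, which binds free haemoglobin. LCN2 (ENSG00000148346, chromosome 9, 128149071 to 128153455, plus strand) was at 0.763, 0.575, 0.863 and 2.02 FPKM in the untreated and 1.89, 2.43, 2.05 and 3.03 FPKM in the dexamethasone replicates. Untreated replicate 5 lay above dexamethasone replicate 1, so the groups overlapped, and each group's highest library was replicate 5. The means of 1.05 ± 0.654 and 2.35 ± 0.506 FPKM (SD, n = 4 each) differed 2.23-fold, a log2 difference of 0.74 (SE 0.203). It was 0.95 without untreated replicate 5 and 0.63 without untreated replicate 3. Its neighbours PTGES2 and C9orf16 had log2 differences of -0.29 and 0.01 (limma adjusted p = 0.281 and 0.982). HP (ENSG00000257017, chromosome 16, 72054592 to 72061055, plus strand) had no signal in any untreated library or in dexamethasone replicate 4. It reached 0.0312, 0.0123 and 0.0315 FPKM in the other treated libraries, each under the worth of 1 fragment on 1 kb. TXNL4B, which overlaps HP on the opposite strand, was at 4.36 ± 0.473 and 4.61 ± 1.46 FPKM (limma adjusted p = 0.886).

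The order of the levels per length was nearly the same in both groups at the top and differed below. In untreated cells C3 and FGA led, with ranges that overlapped, followed by LCN2, FGB, FGG, SERPINA3, SERPINA1, SAA1, SAA2 and HP. Every pair of neighbours in that order overlapped except FGA and LCN2. In dexamethasone cells the order was C3, FGA, SAA1, FGB, FGG, SERPINA3, LCN2, SAA2, SERPINA1 and HP. There C3, FGA and SAA1 were each apart from the next lower gene's values except that SAA1 overlapped FGB. FGB, FGG and SERPINA3 overlapped one another, and LCN2, SAA2, SERPINA1 and HP were each separate. SAA1 moved from the 27.3 to the 86.2 percentile of all genes by mean level, FGA from the 62.3 to the 96.4, and SERPINA3 from the 35.1 to the 79.9. The 10 genes together held 0.00406% to 0.00491% of all FPKM in untreated and 0.0772% to 0.0915% in treated libraries.

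The members did not share 1 order among the treated libraries. Among the dexamethasone libraries, replicate 5 was lowest for FGA, FGB, FGG and SERPINA3 and highest for SAA1, SAA2, C3 and LCN2. Without both libraries numbered 5 the log2 differences were 4.35 for SAA1, 3.62 for FGA, 3.33 for FGB, 3.27 for FGG, 4.15 for C3, 3.89 for SERPINA3 and 0.86 for LCN2. The genes also differed in base composition, from 38.2% GC in FGG transcripts to 56.1% in LCN2. With each library's trend on gene GC content removed, the differences were 2.78 for FGG, 2.91 for FGB and 3.39 for FGA, lower than with it, and 4.63 for SAA1, 4.25 for C3 and 0.93 for LCN2, higher than with it. All 8 remained higher after dexamethasone under both settings.

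**Figure D3:**
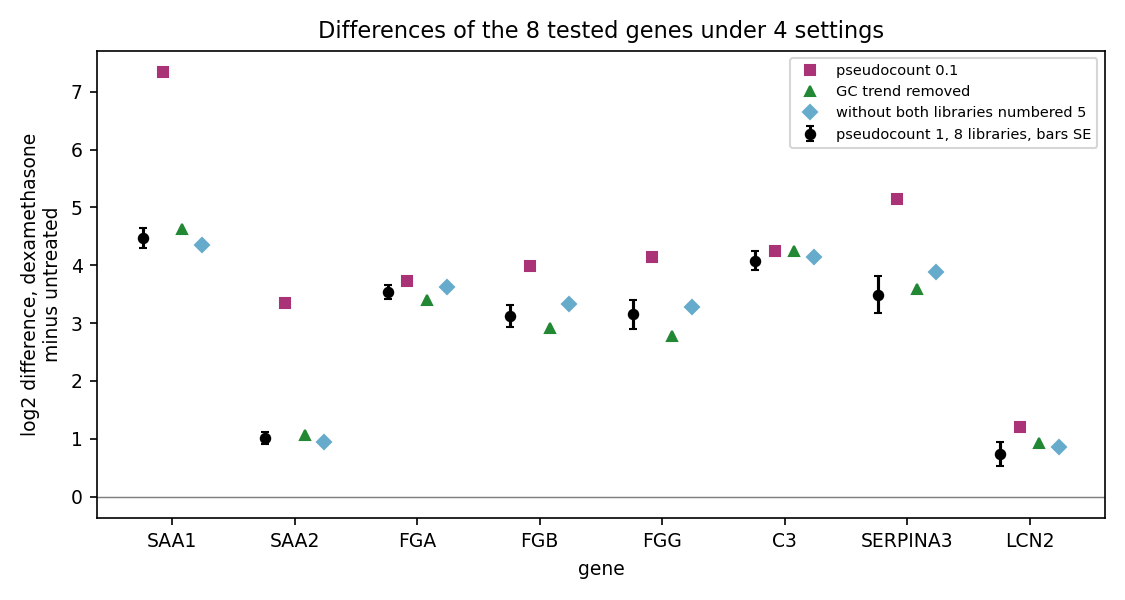
Log2 differences (dexamethasone minus untreated) of the 8 genes that reached the level for testing, under 4 settings marked by symbol, with the SE as bars for the pseudocount of 1. All points lie above 0, and SAA1 ranges from 4.35 without both libraries numbered 5 to 7.34 with a pseudocount of 0.1.

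Genes around the acute-phase response were then examined in lists, to show which other parts of it differed. These genes are not members, and their adjusted p-values come from the same limma fit over all genes, in which the median log2 difference was 0.01, 12.4% of genes were called higher and 14.3% lower. Of 19 other positive acute-phase proteins, 5 could be tested, with a median log2 difference of 0.53, 2 higher and 2 lower. FGL1, a fibrinogen-like protein of the liver, rose from 2.34 ± 0.301 to 6.41 ± 0.377 FPKM (log2 difference 1.15, SE 0.117, limma adjusted p = 9.04e-05). CP, which encodes the copper protein ceruloplasmin, rose from 0.188 ± 0.127 to 1.22 ± 0.162 FPKM (0.90, SE 0.1, limma adjusted p = 0.000173), and its difference was 0.58 with the GC trend removed. FTL, the ferritin light chain, fell from 8287 ± 2826 to 3978 ± 459 FPKM (-1.01, SE 0.244, limma adjusted p = 0.0132). CD14, the lipopolysaccharide co-receptor, fell from 2.51 ± 0.647 to 1.33 ± 0.238 FPKM (-0.58, SE 0.148, limma adjusted p = 0.018), a call lost without dexamethasone replicate 1 (-0.54, limma adjusted p = 0.0578) or 4 (-0.56, limma adjusted p = 0.0562) and of size -0.35 with the GC trend removed. FTH1, the ferritin heavy chain, was at 1774 ± 250 and 2553 ± 360 FPKM (limma adjusted p = 0.0605), and passed with the GC trend removed (limma adjusted p = 0.00171). CRP, APCS, SAA4 and ORM2 were listed at 0 in all libraries. LBP, which binds lipopolysaccharide and was singled out after its values were seen, was at 0 to 0.056 FPKM in untreated and 0.468 to 0.723 FPKM in treated libraries, just under the level for testing.

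Of 12 negative acute-phase and liver plasma proteins only 3 could be tested. RBP4, the retinol carrier, rose from 3.53 ± 1.04 to 7.71 ± 1.93 FPKM (log2 difference 0.94, SE 0.2, limma adjusted p = 0.0072). SERPINA6 fell, as given above, and APOH was at 4.32 ± 0.66 and 4.79 ± 0.764 FPKM (limma adjusted p = 0.557). The list's median was 0.12. Of its other members, GC and APOA2 were listed at 0 in all libraries.

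Complement genes other than C3 were mostly higher. Of 24 in the list 12 could be tested, with a median of 0.84, and 9 rose while CLU fell. C1S and C1R, the proteases of the first component, rose together. C1S went from 11.2 ± 0.607 to 44.2 ± 3.62 FPKM (log2 difference 1.89, SE 0.114, limma adjusted p = 4.04e-06). C1R went from 6.48 ± 1.92 to 26.5 ± 5.88 FPKM (1.88, SE 0.221, limma adjusted p = 0.000246). C4BPB, a chain of the C4b-binding inhibitor, rose from 0.643 ± 0.243 to 2.29 ± 0.388 FPKM (1.01, limma adjusted p = 0.000661), and CD55, a membrane inhibitor of the C3 convertases, from 6.21 ± 0.98 to 12.7 ± 1.13 FPKM (0.93, limma adjusted p = 0.000959). The others that rose were C5, CFB, CFD, CD46 and CD59, of which CFD, CD46 and CD59 lost their call when certain single libraries were left out. VTN did not pass. The number called was 7 to 10 when each library was left out in turn.

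Coagulation and fibrinolysis genes went both ways, with 13 of 22 tested, a median of 0.30, 5 higher and 4 lower. THBD, the thrombin cofactor thrombomodulin, rose from 10.4 ± 0.575 to 32.1 ± 0.868 FPKM (log2 difference 1.55, SE 0.105, limma adjusted p = 8.24e-06). TFPI, the tissue factor pathway inhibitor, rose from 9.2 ± 3.25 to 42.5 ± 3.07 FPKM (2.15, SE 0.217, limma adjusted p = 0.000101). F2 and PROS1 also rose. Both plasminogen activators fell. PLAU went from 70.5 ± 5.45 to 28.4 ± 2.92 FPKM (-1.28, limma adjusted p = 7.47e-05) and PLAT from 2.03 ± 0.255 to 0.307 ± 0.173 FPKM (-1.22, limma adjusted p = 7.18e-05). PLAUR and SERPINF2 also fell, the latter with a call that was lost without untreated replicate 4 or dexamethasone replicate 1, 3 or 4 (limma adjusted p = 0.055 to 0.099).

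**Figure D4:**
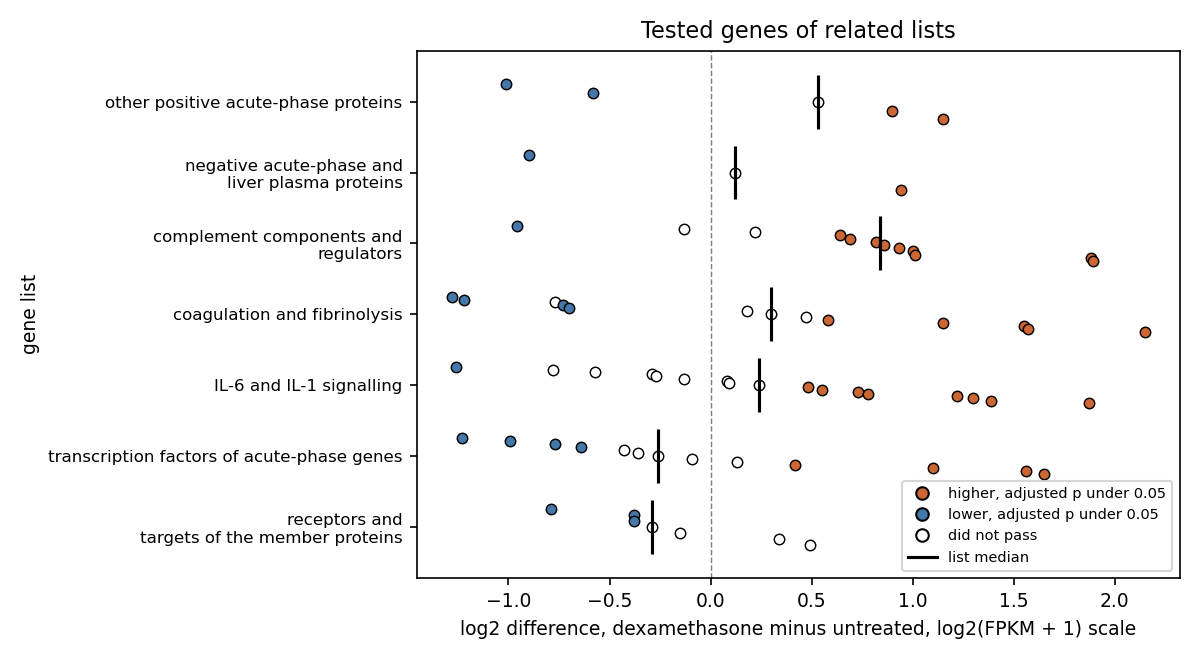
Log2 difference (dexamethasone minus untreated, log2(FPKM + 1) scale) of every tested gene in 7 lists, filled where the limma adjusted p was under 0.05, with the list median as a bar. Complement genes lie mostly above 0, with a median of 0.84, and the genes of the other lists lie on both sides.

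Ligands, receptors and kinases of IL-6 and IL-1 signalling had 17 of 22 members tested, a median of 0.24, 8 higher and 1 lower. IL6R, the IL-6 receptor, rose from 3.42 ± 0.897 to 15.1 ± 2.54 FPKM (log2 difference 1.87, SE 0.173, limma adjusted p = 5.67e-05). JAK1, a kinase of this receptor, rose from 48.3 ± 5.67 to 113 ± 2.6 FPKM (1.22, limma adjusted p = 0.000116), and the decoy receptor IL1R2 from 0.501 ± 0.0958 to 1.5 ± 0.239 FPKM (0.73, limma adjusted p = 0.00051). IL6ST, LIFR, OSMR, JAK2 and IL1R1 also rose. The ligand LIF fell from 20.5 ± 1.14 to 8.01 ± 0.739 FPKM (-1.26, limma adjusted p = 4.49e-05). The ligands IL6, OSM, IL1A and IL1B were too low to be tested. STAT3 was at 81.6 ± 5.03 and 96.8 ± 9.66 FPKM (limma adjusted p = 0.19, or 0.0249 with the GC trend removed) and SOCS3, its feedback inhibitor, at 11.8 ± 2.31 and 9.46 ± 1.55 FPKM (limma adjusted p = 0.229). The call of JAK2 was lost with the GC trend removed, at 0.27, and that of OSMR when certain single libraries were left out.

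Among 14 transcription factors known to act on acute-phase genes, 13 were tested, with a median of -0.26, 4 higher and 4 lower. CEBPB was at 45.9, 46.8, 47.1 and 68.7 FPKM in the untreated and 130, 157, 147 and 186 FPKM in the dexamethasone replicates (log2 difference 1.56, SE 0.175, limma adjusted p = 0.000189). KLF6 rose from 11.5 ± 4.27 to 37.6 ± 8.73 FPKM (1.65, SE 0.258, limma adjusted p = 0.00132). CEBPD and NFKBIZ also rose. FOXA2, a factor of liver and other endoderm tissues, fell from 18.2 ± 3.46 to 7.2 ± 1.53 FPKM (-1.23, limma adjusted p = 0.000706). CEBPA also fell. The calls of NFKBIZ and CEBPA were lost when certain single libraries were left out. RELA, NFKB1, HNF4A, FOXA1 and NR3C1, the glucocorticoid receptor, did not pass.

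Of 17 receptors and protease targets of the proteins that the members encode, 7 were tested, with a median of -0.29, 0 higher and 3 lower. All 3 are integrin genes. ITGAM, a chain of a fibrinogen and complement receptor, fell from 2.04 ± 0.1 to 0.763 ± 0.22 FPKM (log2 difference -0.79, limma adjusted p = 0.000558). ITGB2, its partner, fell from 0.93 ± 0.084 to 0.488 ± 0.164 FPKM (-0.38, limma adjusted p = 0.0169), a call lost without dexamethasone replicate 1 (limma adjusted p = 0.0522) or 4 (limma adjusted p = 0.052) and with the GC trend removed (-0.13, limma adjusted p = 0.498). ITGB3 fell from 1.24 ± 0.296 to 0.719 ± 0.161 FPKM (-0.38, limma adjusted p = 0.0403), a call that held when untreated replicate 3 or dexamethasone replicate 5 was left out and in no other such fit. The count was 1 without dexamethasone replicate 1 or 4. SCARB1, a receptor for high-density lipoprotein and serum amyloid A, was at 44.9 ± 8.76 and 56.9 ± 6.97 FPKM (0.34, limma adjusted p = 0.143). SCARB1 passed with the GC trend removed (0.56, limma adjusted p = 0.000273) and without untreated replicate 5 (0.47, limma adjusted p = 0.0195).

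The genes whose values followed those of a member most closely were taken by the highest Pearson correlation of log2(FPKM + 1) over the 8 libraries. All points share the split into 2 groups, which dominates such a correlation, so it is a description. For SAA1 they were RGCC, SCNN1B and CIDEC, with r of at least 0.999. For C3 they included PRKCD and ZFP36, also with r of at least 0.999. For FGB they were NR1H4, PDZD2 and DCUN1D3, with r of 0.997, 0.995 and 0.995. For LCN2 they were TMEM42, SEC14L4 and ARRDC1, with r of 0.995, 0.992 and 0.99.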

How the data were processed

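Per the labels, ribosome-depleted RNA from 8 wells was sequenced as pairs of 150-base reads. Parallel wells for proteomics are not analysed here. Per the submitters' processing notes, FastQC 0.11.9, Cutadapt 3.4, STAR 2.7.9a on GRCh38, featureCounts of Subread 2.0.3 and DESeq2 1.32.0 were used. Annotation release and strand are not given in the sources used here. The deposited values are named counts but are not whole, and were read as FPKM from the values. Between 44.1% and 48.3% of low values lay within 0.1 of a whole fragment, so no count test was run.

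A TMM-type factor (trims 0.3 and 0.05) was computed for each library, 0.824 to 1.09, and applied to its FPKM. Log2(FPKM + 1) was fitted with limma 3.58.1 in R 4.3.3 (trend, robust, group only, two-sided), and the fit was tested on simulated data. GENCODE release 44 matched 19065 genes and gave strand, overlaps and GC content. Coordinates are those of the tables. Named genes were the members, the 4 tested genes of each list with the smallest p, neighbouring genes and the 3 genes most alike. Other list genes were named after their values were seen. Members and lists were chosen with earlier results of these data known. Alternatives were another pseudocount, filter or scaling, removal of the GC trend, a replicate block, and leaving out libraries. Some genes counted in the lists are not reported here by name.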

Additional observations from a re-analysis of the deposited data

Results flagged for a closer look

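In 7 of 75 groups of 4 libraries, among the members and the list genes given with values, 1 library stood apart from the other 3 on the log2(FPKM + 1) scale. Chance gives about 1 in 20, or 3.8 of 75. Because the groups share the same libraries and some hold values listed at 0, no excess is read from these counts. Among the members these were SAA1 in untreated replicate 1, at 0.187 FPKM against 0 to 0.0271 in the others, and SAA2 in untreated replicate 4, at 0.0457 FPKM against 0. Of the remaining 5, 4 were in untreated replicate 5. There CD55 was at 4.75 FPKM against 6.5 to 6.8, CEBPB at 68.7 against 45.9 to 47.1, FTL at 12500 against 6456 to 7181, and RBP4 at 5.08 against 2.9 to 3.11. C4BPB in dexamethasone replicate 4 was at 1.72 FPKM against 2.44 to 2.56 in the other treated libraries.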

How the results depend on the processing

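The 8 tested members were higher after dexamethasone in each alternative fitted for them. SERPINA1 and HP entered only the fit with no filter on low values, and SAA2 was not in the fit with the filter at 1 FPKM. With a pseudocount of 0.1 in place of 1 the log2 difference of SAA1 plus SAA2 was 7.27 in place of 4.52, since untreated values lay near 0, and it was 4.38 to 4.59 when each library was left out. SAA1 alone was at 7.34, SAA2 at 3.35, SERPINA3 at 5.14, FGG at 4.14 and FGB at 3.98 with that pseudocount. The number of all genes called, 3251 (1513 higher, 1738 lower), was 2317 to 3846 when each library was left out (1041 to 1837 higher, 1263 to 2009 lower) and 5514 without both libraries numbered 5 (2714 higher, 2800 lower). With a replicate block it was 5747 (2925 higher, 2822 lower), and 5284 with the block and the GC trend removed (2657 higher, 2627 lower). The block also called FTH1, so that 5 of 5 tested other positive acute-phase genes passed, and SCARB1 (0.34, limma adjusted p = 0.0277). With it 12 coagulation and fibrinolysis genes were called in place of 9, and 11 IL-6 and IL-1 signalling genes in place of 9. Transcription factors called numbered 10 in place of 8, and complement genes stayed at 10. Deviations of same-numbered libraries correlated at 0.292, 0.066, 0.315 and 0.713 for numbers 1, 3, 4 and 5. Untreated replicates 3 and 4 correlated best with dexamethasone replicate 1, at 0.434 and 0.424. The labels do not say what a shared number stands for, and these correlations do not settle whether the wells were paired. Since not every pair was above 0.1, the fit without the block was kept. Genes described above as not passing did not pass in that fit, and some of them may pass with the block. Members called were 7 to 8 over the fits without 1 library. Called receptors and targets numbered 5 with the replicate block, with no filter and without both libraries numbered 5, and 1 to 3 when each library was left out. Negative acute-phase genes called numbered 1 with the filter at 1 FPKM. APOH was at -0.08 with the GC trend removed, with or without the block, and passed in neither. Changes of genes worth only a few fragments are not resolved at this depth.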
